A study of Mus musculus with 2 samples.

Results

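Genes that mark Sertoli cells, 10 in all, were followed on a pair of mouse promoter arrays: Amh, Fshr, Inha, Inhbb, Clu, Dhh, Cldn11, Trf, Wt1 and Gata4. Their probes were found by the gene name that the array design gives each probe, which yielded 293 probes with a genome position. Of these, 8 were dim in both channels and were left out, so that 285 of the 454679 usable probes of both arrays are described here. Array 1 carried 122 of them, for the 4 genes Inha, Inhbb, Cldn11 and Wt1, and array 2 carried 163, for the other 6 genes.

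The samples were chromatin of germ cells from the testes of adult male C57BL/6 mice, 5 testes in the stated protocol, fixed with formaldehyde and sheared. DNA precipitated with an antibody against CREM, a transcription factor, was labelled with Cy5, and DNA precipitated with goat IgG as the control was labelled with Cy3. Both were hybridised together, 1 time on each array, with no exchange of the dyes. Each array therefore is a group of 1 sample, the arrays hold different loci, and no difference described here has a replicate check or a p-value. Dye and antibody cannot be told apart. How many Sertoli cells remained among the germ cells was not measured, and no RNA was measured, so the label of the genes could not be checked against expression.

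Sertoli cells are the somatic cells of the seminiferous tubule that surround and nourish the germ cells. Follicle-stimulating hormone (FSH) acts on them through its receptor and raises cyclic AMP, and the inhibin they secrete lowers the release of FSH from the pituitary. CREM binds the cAMP response element (CRE), whose full form is TGACGTCA. Its activator form is abundant in haploid germ cells, whereas in rat Sertoli cells FSH induces ICER, a repressor made from the same gene. A CRE with the letters TGCGTCA is known from the promoter of the inhibin alpha gene of the rat.

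The sequences that matter here come first. The 3 Inha probes lowest in genome position are shown because the rat element has the letters TGCGTCA and neighbouring values differ sharply there. Of these, only the probe with TGCGTCA lies upstream of the outermost RefSeq edge of the gene. The probes from 75503780 and 75503895 lie 150 bp and 265 bp downstream of that edge, taken at their middles. Capitals mark TGCGTCA, and positions are on build mm9, as the array design gives them. Probes are written as spotted, and the 8 probes that matched a promoter sequence all read the plus strand.
Inha probe (chr1:75503601-75503645): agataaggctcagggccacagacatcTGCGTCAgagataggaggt
Inha probe (chr1:75503780-75503824): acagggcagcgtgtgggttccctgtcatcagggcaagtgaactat
Inha probe (chr1:75503895-75503939): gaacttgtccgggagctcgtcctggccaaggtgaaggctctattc
These probes had log2 ratios of CREM over IgG of -0.27, 2.38 and -1.03, each relative to the median of its array. The probe with the element lay close to 0, and the probe next to it carried the highest value of all 285 probes.

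The core of the CRE, TGACG or CGTCA, was present in 6 other probes of these genes, shown next with the core, or TGCGTCA, in capitals.
Inhbb probe (chr1:121318375-121318419): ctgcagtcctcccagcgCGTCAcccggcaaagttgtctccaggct
Cldn11 probe (chr3:31045370-31045429): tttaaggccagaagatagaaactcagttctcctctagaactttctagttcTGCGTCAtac
Cldn11 probe (chr3:31046432-31046491): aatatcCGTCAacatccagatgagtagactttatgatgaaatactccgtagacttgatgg
Cldn11 probe (chr3:31048011-31048069): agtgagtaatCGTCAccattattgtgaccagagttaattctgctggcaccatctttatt
Cldn11 probe (chr3:31049100-31049144): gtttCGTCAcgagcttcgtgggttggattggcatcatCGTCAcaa
Gata4 probe (chr14:63867299-63867348): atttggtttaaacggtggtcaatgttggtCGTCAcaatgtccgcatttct
Their log2 ratios were -1.06 at Inhbb, -0.23, 0.09, -0.54 and -0.74 at Cldn11 and 0.03 at Gata4. None of the 7 probes with a core reached a log2 ratio of 1, which 9.45% of all probes reached. With so few probes, this count cannot tell a lower share from an equal one.

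The windows farthest from 0 both lay at Wt1, and their probes are shown with the dinucleotide CG in capitals. The first 3 form the highest window and the next 3 the lowest window.
Wt1 probe (chr2:104964902-104964950): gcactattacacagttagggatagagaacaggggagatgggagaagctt
Wt1 probe (chr2:104965188-104965243): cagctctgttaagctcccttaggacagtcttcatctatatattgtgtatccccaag
Wt1 probe (chr2:104965358-104965417): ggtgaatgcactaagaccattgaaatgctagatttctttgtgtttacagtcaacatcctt
Wt1 probe (chr2:104966950-104966994): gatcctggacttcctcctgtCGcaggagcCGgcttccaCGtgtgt
Wt1 probe (chr2:104967105-104967149): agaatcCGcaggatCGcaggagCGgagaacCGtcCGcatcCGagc
Wt1 probe (chr2:104967269-104967313): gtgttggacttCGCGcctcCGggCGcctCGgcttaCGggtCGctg
The probes of the highest window held no CG, and those of the lowest window held 3, 6 and 7.

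Promoter sequences from RefSeq (build GRCm38.p6, 250 bases before to 50 after the listed start) were matched to the probes by exact 20-letter words for 5 of the genes. They are shown because the ratio at the start differed between these genes, with CG in capitals, each written 5′ to 3′ on the strand of its gene.
Inha promoter (chr1:75507359-75507658, plus strand): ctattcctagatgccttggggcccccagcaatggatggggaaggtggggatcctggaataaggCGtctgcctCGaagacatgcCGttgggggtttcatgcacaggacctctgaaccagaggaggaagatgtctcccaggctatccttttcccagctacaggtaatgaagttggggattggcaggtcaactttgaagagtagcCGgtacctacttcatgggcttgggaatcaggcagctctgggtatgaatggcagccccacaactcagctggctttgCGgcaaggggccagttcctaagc
Inhbb promoter (chr1:119422199-119422498, minus strand): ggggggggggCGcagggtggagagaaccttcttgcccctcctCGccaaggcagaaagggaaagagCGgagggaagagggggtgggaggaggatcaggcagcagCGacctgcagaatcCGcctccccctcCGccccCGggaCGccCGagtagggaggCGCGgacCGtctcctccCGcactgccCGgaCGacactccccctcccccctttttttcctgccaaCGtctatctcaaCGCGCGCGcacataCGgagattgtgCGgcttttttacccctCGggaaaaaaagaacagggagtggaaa
Cldn11 promoter (chr3:31149670-31149969, plus strand): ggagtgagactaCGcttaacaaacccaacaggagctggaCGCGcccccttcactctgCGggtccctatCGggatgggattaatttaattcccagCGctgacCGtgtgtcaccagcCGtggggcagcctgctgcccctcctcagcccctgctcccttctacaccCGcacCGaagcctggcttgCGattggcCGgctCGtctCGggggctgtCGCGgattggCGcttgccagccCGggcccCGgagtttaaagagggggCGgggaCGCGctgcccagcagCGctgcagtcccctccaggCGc
Dhh promoter (chr15:98898491-98898790, minus strand): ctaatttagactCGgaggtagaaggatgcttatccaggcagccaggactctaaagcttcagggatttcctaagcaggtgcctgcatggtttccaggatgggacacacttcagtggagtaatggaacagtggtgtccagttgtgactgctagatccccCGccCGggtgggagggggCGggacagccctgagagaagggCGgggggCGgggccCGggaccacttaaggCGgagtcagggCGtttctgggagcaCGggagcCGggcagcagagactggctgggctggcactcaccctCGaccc
Fshr promoter (chr17:89200626-89200925, minus strand): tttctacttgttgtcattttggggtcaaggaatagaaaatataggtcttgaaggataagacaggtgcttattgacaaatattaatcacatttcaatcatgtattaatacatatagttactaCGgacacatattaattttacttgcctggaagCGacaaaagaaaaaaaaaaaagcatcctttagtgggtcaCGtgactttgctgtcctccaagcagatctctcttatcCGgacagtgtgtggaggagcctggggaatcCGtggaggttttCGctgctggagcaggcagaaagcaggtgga
The promoters of Cldn11 and Inhbb held 24 and 23 CG dinucleotides, that of Dhh held 12, and those of Fshr and Inha held 6 and 5. Their GC content was 66.3% at Cldn11, 64.3% at Inhbb, 61.7% at Dhh, 55.3% at Inha and 40.7% at Fshr. The Inha sequence surrounds a listed start 532 bp downstream of the outermost RefSeq edge of the gene. It therefore lies inside the gene as bounded by that edge, and its values do not describe the sequence at the edge.

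Log2 ratios were read in windows. Each window took 3 consecutive probes, no start more than 500 bp from the next, and its value was their median log2 ratio. The array's name for the middle probe gave the gene. A window at 1 or more, a 2-fold ratio, counts as a CREM-side window. A window at -1 or less counts as an IgG-side window, the opposite side measured the same way. The sides differ in base composition. Of all probes from 60% GC upward, 54.0% were at -1 or less and 0.408% at 1 or more. Of the 10 Sertoli genes, 1 had a CREM-side window (10%, exact 95% binomial interval 0.253 to 44.5%, counting error only), against 34.4% of the 17327 genes with a window. IgG-side windows were present at 3 of the 10 (30%, interval 6.67 to 65.2%), against 33.6% of all genes. The CREM-side window lay at Wt1, and the IgG-side windows at Wt1, Inhbb and Amh. The 10 genes had a median of 25.5 windows, against 19 over all genes, and more windows give more chances of an extreme value. Shares of genes, and medians of highest and lowest windows, are not matched for this. Both intervals span the share of all genes. They cover counting error alone, for genes that were chosen and not sampled, so they are no test of a difference.

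The median of the 10 highest windows was 0.43, against 0.77 over all genes. The median of the 10 lowest windows was -0.84, against -0.76. Probes of these genes leaned to the IgG side, with 62.5% of the 285 below 0, where centring on the median puts all probes at an even split. Of their 239 windows, 2 (0.837%) were CREM-side windows, against 5.99% of all windows, and 14 (5.86%) were IgG-side windows, against 4.56%. Of their 285 probes, 9 (3.16%) were at 1 or more, against 9.45% of all probes, and 29 (10.2%) were at -1 or less, against 6.52%. Neighbouring probes and overlapping windows share chromatin fragments and are not independent.

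**Figure D1:**
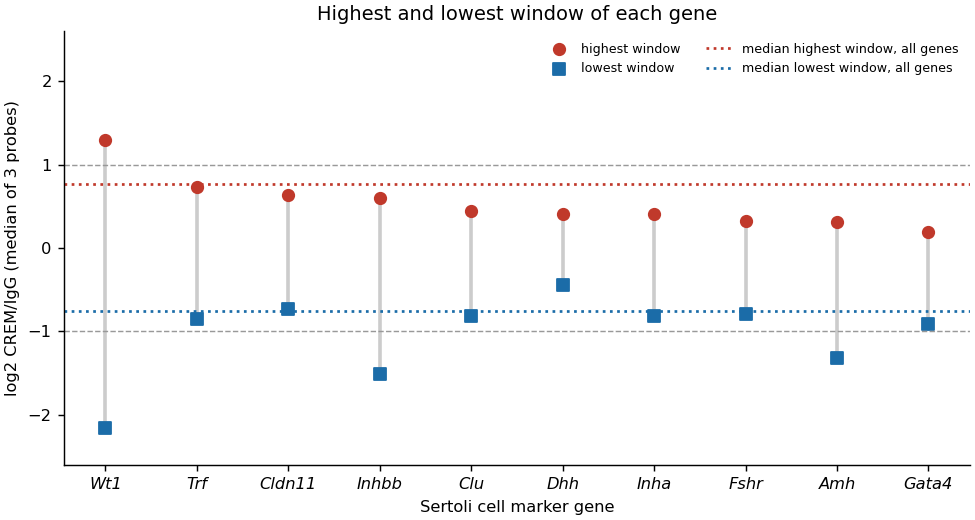
Highest window (red circles) and lowest window (blue squares) of each Sertoli gene, as log2 of CREM over IgG, with genes in the order of their highest window. Dashed lines mark 1 and -1, and dotted lines mark the medians over all genes, 0.77 and -0.76. Wt1 alone reaches past 1, and 9 of the 10 highest windows lie below the red dotted line.

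Fshr encodes the receptor through which FSH acts on Sertoli cells. It had 23 probes on chromosome 17, from 89597667 to 89605441, with a median of -0.02. Its highest window was 0.33 (probes 0.33, 0.64 and -0.33) and its lowest was -0.79 (probes -0.51, -0.79 and -1.10). The receptor gene thus stayed between the counting limits on both sides. Within 500 bp of the start, 5 probes ranged from -0.36 to 1.16 with a median of 0.08, and the 18 other probes had a median of -0.10. The probe at 1.16 had a CREM signal of 300.1 and an IgG signal of 132.6, which was not well above background. Set against the lowest IgG signal that was well above background on that array, 287.5, its CREM signal was 1.04-fold higher. This is not a strict bound, since a probe of Trf with an IgG signal of 315.9 was not well above background either. Fshr was the gene of the 5 with the lowest promoter GC content, and 19.9% of the genes of its array had a lower mean GC content over their probes.

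Inha encodes the alpha subunit shared by the inhibins. Its 18 probes lay on chromosome 1 from 75503601 to 75507801, with a median of -0.27, and 8.98% of the genes of array 1 had a lower median. The highest window, 0.41, lay at the downstream end of the locus (probes 0.41, -0.48 and 0.45), and the lowest, -0.82, held probes at 0.10, -0.96 and -0.82. No window of Inha was counted on either side.

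The exception at probe level was the probe shown above from 75503780. Its CREM signal was 10976 and its IgG signal 2071, both well above background, and its ratio was the highest of the 285. The probe 179 bp before it had signals of 1203 for CREM and 1425 for IgG, and the probe 115 bp after it 566.5 for CREM and 1136 for IgG. The median of the 3 was therefore -0.27, and the high value stood alone. Under 7 other ways to compute the probe values it ranged from 2.29 to 2.83. The probe before it was above 0 under 2 of these, at 0.02 with normexp background correction and at 0.11 without the GC trend. Over both arrays, 5616 probes at 2 or more had neighbours within 500 bp on either side, and at 262 of them (4.67%) both neighbours were below 0. A high probe between low neighbours is thus an uncommon pattern on these arrays, and no second measurement of the probe exists.

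Counted in steps of mm9 from the matched promoter, the probe with TGCGTCA covered positions -51 to -7 relative to the outermost RefSeq edge of Inha, which lies 532 bp upstream of the listed start. The high probe lay 150 bp downstream of that edge, taken at its middle, and the low probe 265 bp downstream. Within 500 bp of the listed start, 4 probes ranged from -1.03 to 2.38 with a median of 0.43, against a median of -0.37 for the 14 others. That median comes from the high probe, the low probe beside it and a pair at 0.40 and 0.46. The neighbouring gene Stk11ip, whose probes adjoin the downstream end, had a highest window of 1.58.

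Inhbb encodes the beta B subunit, which joins with Inha to form inhibin B. Its 32 probes on chromosome 1, from 121316465 to 121324354, had the lowest median of the 10 genes, -0.49, and 1.13% of the genes of array 1 had a lower one. The lowest window was -1.52 (probes -1.52, -0.04 and -1.67) and the highest 0.60 (probes -1.46, 0.60 and 0.60). Of its 26 windows, 7 were IgG-side and 0 CREM-side windows.

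The low values of Inhbb lay together over its start. A run of 14 consecutive probes below 0 covered 2884 bp, from 121316465 to 121319348, with a median of -1.12 and a range of -2.34 to -0.04. Runs of at least 14 were present in 1.67% of 17821 genes with a usable probe, a share not matched for the number of probes per gene. Median signals in the run were 1334 for CREM and 3347 for IgG, so both channels were bright. The other 18 probes had a median of -0.20, with median signals of 695.1 for CREM and 738.4 for IgG.

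The run was GC-rich, with a mean of 58.1% against 43.8% in the rest of the locus. With the median ratio of all probes of like GC content subtracted, the median of the run was -0.39, against -0.20 for the rest, and 10 of its 14 probes were below 0, as were 15 of the 18 others. The lowest window was then -1.25. All 6 probes within 500 bp of the start were at -0.80 or less, the lowest at -1.68. That probe covered positions -105 to -61 relative to the start, and the probe from 11 to 59 had -0.95.

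Amh encodes anti-Müllerian hormone, which makes the Müllerian ducts of the male fetus regress. Its 15 usable probes lay on chromosome 10 from 80267675 to 80270493, with a median of -0.33. The lowest window was -1.33 (probes -1.33, -0.54 and -2.07) and the highest 0.32 (probes -0.33, 0.32 and 0.46). On array 2, 16.3% of genes had a lower highest window. The probes of Amh were the richest in GC of the 10 genes at a mean of 55.2%, and 99.7% of the genes of array 2 had a lower mean. Without the GC trend the lowest window of Amh was -0.23, so that its IgG-side count is lost, and the median of its probes was -0.06. Sf3a2, the gene beside it, had a lowest window of -1.32. Amhr2, the receptor of the hormone, had a highest window of 0.31 and a lowest of -0.90.

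Dhh encodes Desert hedgehog, a signal from Sertoli cells to the Leydig and peritubular cells. Its 20 probes on chromosome 15, from 98726730 to 98734369, had a median of -0.06. The highest window was 0.41 (probes -0.25, 0.42 and 0.41) and the lowest -0.44 (probes -0.44, 0.36 and -1.01), the narrowest span of the 10 genes. A lower lowest window was present at 75.7% of the genes of array 2. Within 500 bp of the start, 7 probes had a median of -0.25, against 0.01 for the 13 others, and these groups overlapped widely, with -1.01 to 0.42 near the start.

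**Figure D2:**
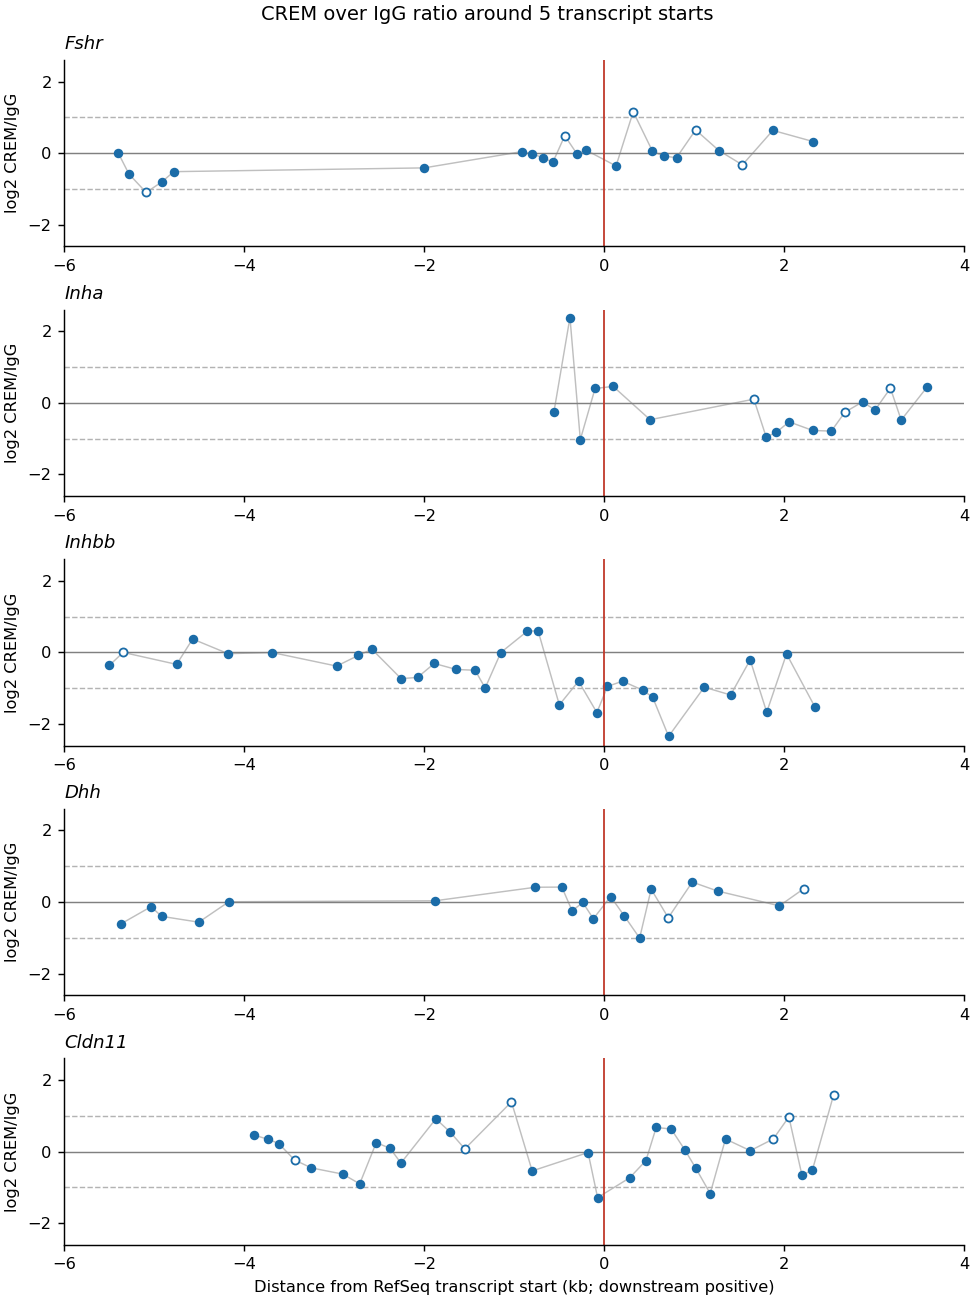
Log2 of CREM over IgG of each probe of Fshr, Inha, Inhbb, Dhh and Cldn11 against distance from the RefSeq transcript start in kb, with downstream to the right and the start as a red line. For Inha the listed start is drawn, which lies 532 bp downstream of its outermost RefSeq edge. Open circles are probes whose IgG signal was not well above background, and dashed lines mark 1 and -1. The lone high probe of Inha, at 2.38, lies between values of -0.27 and -1.03, and the run of low values of Inhbb lies over and downstream of its start.

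Clu encodes clusterin, a secreted chaperone abundant in fluid of the tubules. Its 32 usable probes on chromosome 14, from 66582185 to 66589956, had a median of -0.09. The highest window was 0.45 (probes 0.11, 0.45 and 1.91), and the lowest was -0.81 (probes -0.81, 0.02 and -0.90). The probe at 1.91 was dim, with a CREM signal of 249.9 and an IgG signal of 65.5 that was not well above background. Its CREM signal lay below the lowest IgG signal that was well above background, so no bound above 1-fold can be given. No window of Clu was counted on either side.

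Trf encodes transferrin, which carries iron to the germ cells behind the blood-testis barrier. It had 32 usable probes on chromosome 9, from 103130303 to 103137425, and a median of -0.13. Its highest window was 0.73 (probes -0.30, 0.86 and 0.73), and at all 3 of its probes both signals were well above background. The lowest window was -0.85 (probes 0.81, -0.85 and -0.99), and both signals were well above background at 1 of its 3 probes. All probes of Trf lay between -0.99 and 0.86, so it was the only gene of the 10 with no probe at 1 or more or at -1 or less.

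Cldn11 encodes claudin 11, a protein of the tight junctions between Sertoli cells. Its 31 usable probes lay on chromosome 3 from 31044917 to 31051420, with a median of 0.03, the only median above 0. The highest window was 0.63 (probes -0.25, 0.67 and 0.63) and the lowest -0.74 (probes -0.03, -1.28 and -0.74). The lowest window lay over the CG-rich promoter shown above, and the probe at positions -97 to -53 relative to the start had -1.28. Within 500 bp of the start the 4 probes ranged from -1.28 to -0.03 with a median of -0.49, and the 27 others had a median of 0.09. Probes near the start had a mean GC content of 53.3%, against 40.3% for the others. Without the GC trend this window was -0.22, and the lowest window of the gene, then another one, was -0.74. The probes at 1.39 and 1.59 both had IgG signals that were not well above background. Against the lowest IgG signal well above background on that array, 305.6, their CREM signals were 1.27-fold and 1.48-fold higher, again not a strict bound.

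Wt1 encodes a zinc finger transcription factor that Sertoli cells need to keep their identity. It had 41 usable probes on chromosome 2, from 104961510 to 104969131, a median of -0.20, and the widest span of the 10 genes. Its highest window, from 104964902 to 104965417, was 1.30, with probes at -0.07, 1.30 and 1.90. Its lowest window, from 104966950 to 104967313, was -2.16, with probes at -1.17, -2.16 and -2.42. A lower lowest window was present at 1.63% of the genes of array 1, and a lower highest window at 81.2%.

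The channels behind these windows of Wt1 differed. In the highest window the IgG signal was well above background at 1 of 3 probes. The probe at 1.30 had a CREM signal of 675.8 and an IgG signal of 270.5. Set against the lowest IgG signal well above background, 305.6, its CREM signal was 2.21-fold higher. That is not a strict bound, since a probe of Inhbb with an IgG signal of 317.9 was not well above background. The probe at 1.90 had signals of 277.9 for CREM and 73.2 for IgG, which give no bound above 1-fold. When a probe was used only if both its signals were well above background, the highest window of Wt1 was 0.14, so that 0 of the 10 genes had a CREM-side window, against 20.8% of all genes under that filter. A further probe of Wt1, at 1.06, had both signals well above background, at 1237 for CREM and 584.7 for IgG, and its neighbours were at -0.29 and -1.30. In the lowest window both signals of all 3 probes were well above background. The probe at -2.16 had signals of 385.9 for CREM and 1694 for IgG.

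The low window of Wt1 was part of a run of 13 probes below 0, from 104966415 to 104968307, with a median of -0.72. Runs of at least 13 were present in 2.45% of genes. Its mean GC content was 57.7%, against 42.4% in the rest of the locus, whose median ratio was -0.08. Without the GC trend the run had a median of -0.27, against -0.02 for the rest, and its lowest window was -1.02. The lowest window of the gene was then -1.20, outside the run.

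Gata4 encodes a GATA factor present in Sertoli cells from the embryo to the adult. Its 41 usable probes lay on chromosome 14, 40 of them between 63861986 and 63869550 and a single one far off at 63817782. Its highest window, 0.19 (probes 0.64, -0.04 and 0.19), was the lowest of the 10 genes, and 9.86% of the genes of array 2 had a lower one. The lowest window was -0.91 (probes -0.41, -1.89 and -0.91), and the probe at -1.89 had signals of 970.3 for CREM and 3542 for IgG. Another probe, from 63866560, reached -1.92 with a GC content of 43.8%, the lowest value among the member probes below 50% GC. The probe at 1.29 was dim, at 189.2 for CREM and 76.1 for IgG, and gives no bound above 1-fold.

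**Figure D3:**
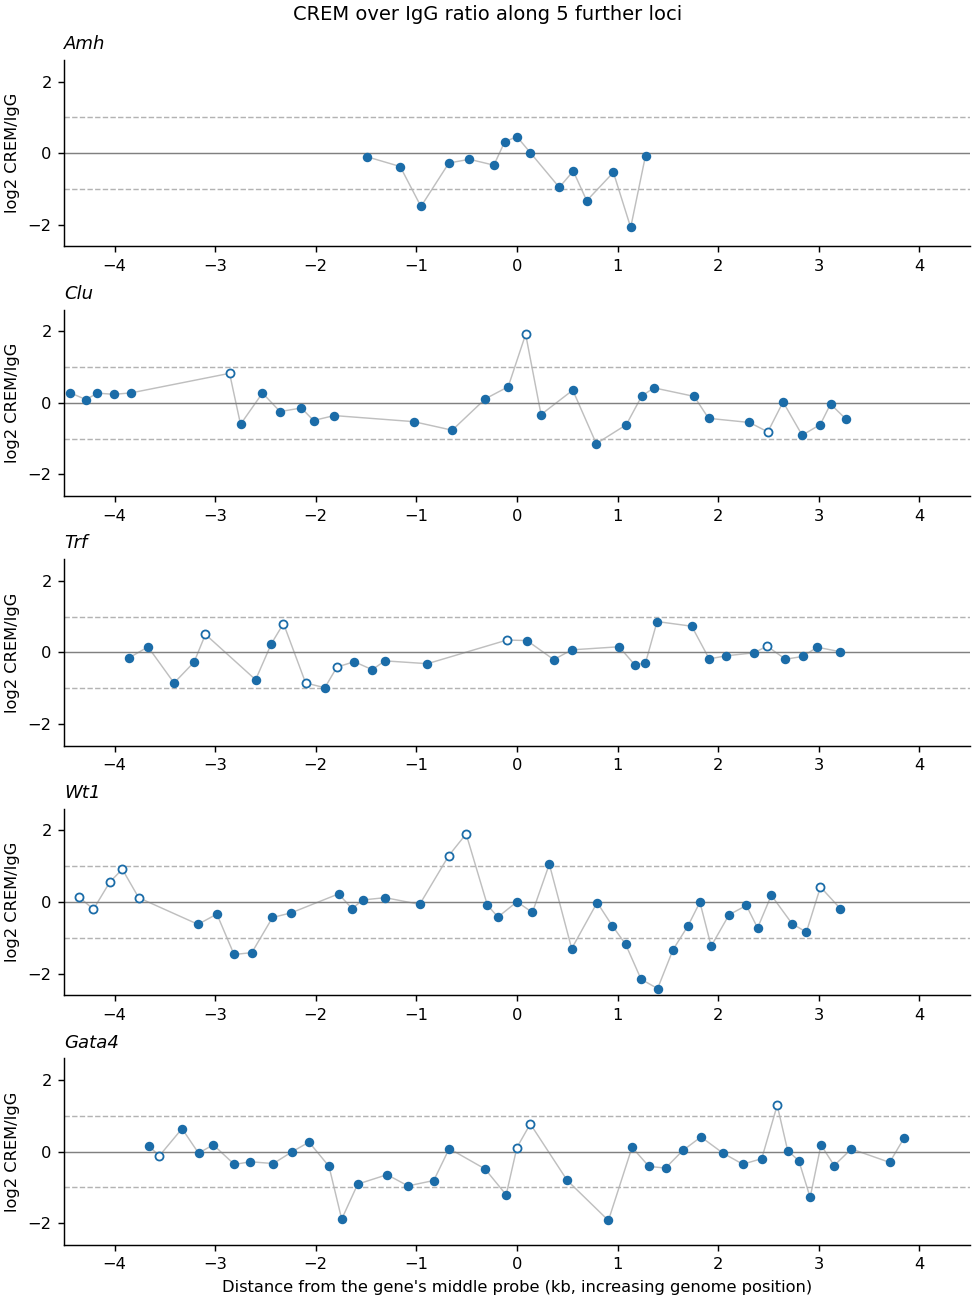
Log2 of CREM over IgG of each probe of Amh, Clu, Trf, Wt1 and Gata4 against distance from the middle probe of the gene in kb, in increasing genome position. Open circles are probes whose IgG signal was not well above background, and the distant probe of Gata4 is not drawn. The probes of Wt1 at 1.30 and 1.90 are open circles, whereas its run of low values, down to -2.42, is of filled ones.

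Of the 9 probes at 1 or more, the IgG signal was well above background at 2 (22.2%), those of Inha and Wt1, against 41.8% of all probes at 1 or more. Of the 29 probes at -1 or less, IgG was well above background at 28 (96.6%), against 96.3% of all such probes. CREM was well above background at all 29, against 98.1%, as it was at all 285 probes used. Among the 246 probes with both signals well above background, 2 (0.813%) were at 1 or more, against 4.87% of all such probes, and 28 (11.4%) were at -1 or less, against 7.60%. High ratios at these genes thus came mostly from probes with an IgG signal not well above background. The median signals were 388.1 for CREM and 145.9 for IgG at the 9 high probes, and 385.9 for CREM and 1136 for IgG at the 29 low probes.

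**Figure D4:**
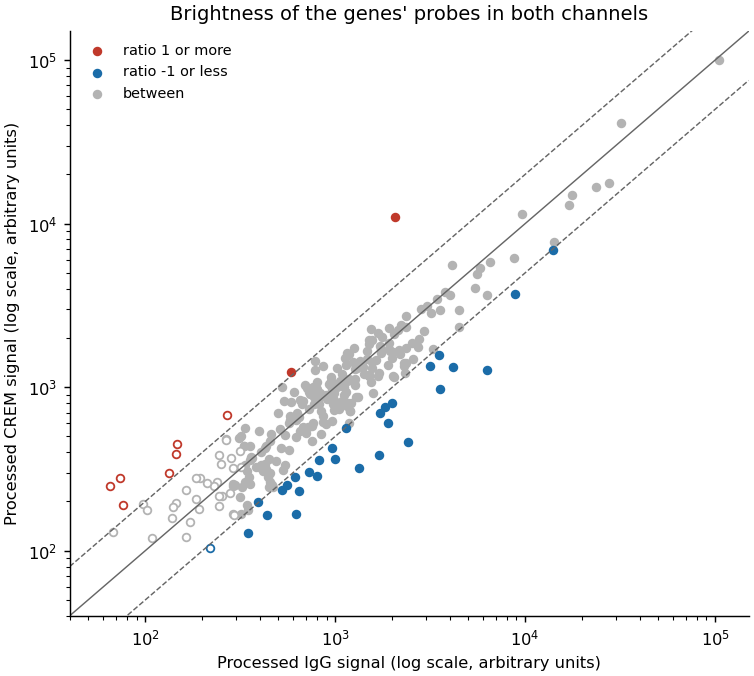
Processed CREM signal against processed IgG signal of the 285 probes, both on log scales in arbitrary units. Red points have a ratio of 1 or more, blue points -1 or less, open circles an IgG signal not well above background, and the lines mark equal signals and 2-fold ratios before centring. Most red points are open and at the dim end, and the red point at 10976 and 2071 is the lone high probe of Inha.

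The ratio moved with the base composition of the probes. Across the 285 probes, Pearson's r of the ratio with GC content was -0.48 and Spearman's rho -0.41, against -0.41 and -0.30 over all probes. These describe probes of the same arrays, which share fragments and hybridisation. Sertoli gene probes had a mean GC content of 45.3%, against 42.4% for all probes, and 25 of their 29 probes at -1 or less (86.2%) had a GC content of 50% or more, against 68.1% of all such probes.

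High values were fewer than among all probes in the classes poorer in GC, and near them from 50 to 60%. Below 40% GC, 4 of 83 Sertoli probes (4.82%) were at 1 or more, against 12.7% of all probes, and from 40 to 50% it was 4 of 131 (3.05%), against 8.74%. Low values were not more frequent there either. At -1 or less were 1 of 83 (1.20%), against 2.26% of all probes, and 3 of 131 (2.29%), against 2.74%. From 50 to 60% GC, 1 of 50 (2.0%) was at 1 or more, against 2.37%. In the same class, 13 of 50 (26.0%) were at -1 or less, against 14.6%, with a median of -0.52, against -0.34. From 60% GC upward, 12 of 21 (57.1%) were at -1 or less, against 54.0%, with medians of -1.17 and -1.08. The class richest in GC therefore resembled all probes of that class, and the shares in the classes below rest on few probes of 10 loci. With the GC trend removed, 1 of the 10 genes still had a CREM-side window, against 30.7% of all genes, and 2, Wt1 and Inhbb, an IgG-side window, against 12.8%. Of their 239 windows, 2 were then CREM-side, against 5.32% of all windows, and 5 IgG-side, against 1.26%.

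**Figure D5:**
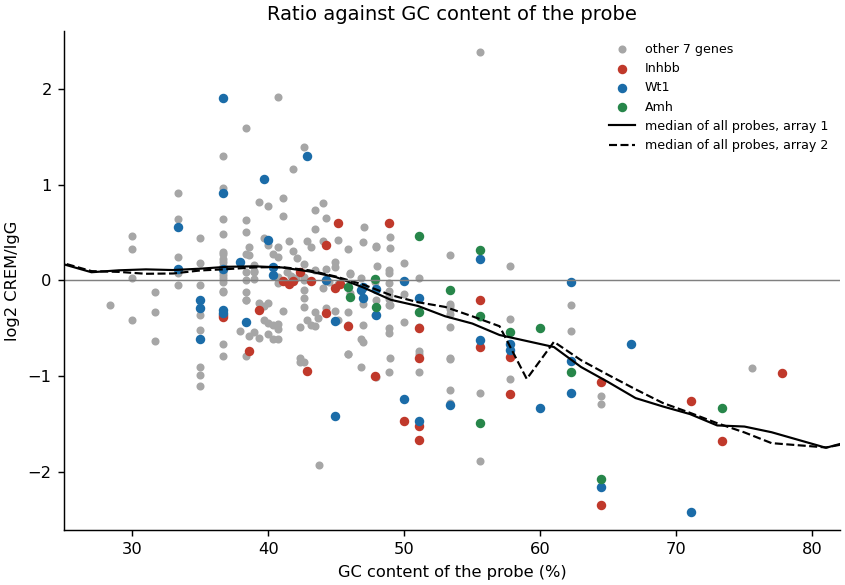
Log2 of CREM over IgG against GC content of the probe in percent, for the probes of Inhbb (red), Wt1 (blue), Amh (green) and the other 7 genes (grey), with the median of all probes in each bin of GC content for array 1 (solid line) and array 2 (dashed line). Points fall with GC content as the lines do, and the grey point at 2.38 is the lone probe of Inha.

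Recognition letters were searched on both strands of the probes. The full CRE was in 0 of the 285 probes, against 0.057% of all probes. The core TGACG or CGTCA, which the full CRE contains, was in 7 (2.46%), against 2.08%, with a median ratio of -0.27. TGCGTCA, which overlaps the core, was in 2 probes (0.702%), at Inha and Cldn11, against 0.112%. The AP-1 letters TGANTCA were in 5 (1.75%), against 1.80%, and the SF1 letters CAAGGTCA in 0, against 0.277%. The GATA motif, by name, was in 34 (11.9%), against 12.01%. Shares near those of all probes were thus the rule, and the count of 2 for TGCGTCA is small.

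Of the 5 promoters shown, none held the CRE core, which 20.8% of 32851 RefSeq promoters of the same length hold. None held TGCGTCA, which 2.12% hold. The Inha sequence searched surrounds the listed start, 532 bp downstream of the outermost RefSeq edge of the gene. The Inha probe with TGCGTCA, at positions -51 to -7 from that edge, lies outside it. A GATA motif lay at positions -27 to -22 relative to the start of Inhbb and in no other of the 5, against 29.8% of all promoters. A match of letters is a description and not a bound site.

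Other genes were set beside these to show their place on the arrays. Of 31 further Sertoli genes, 26 were measured. A CREM-side window was present at 7 (26.9%, against 34.4% of all genes) and an IgG-side window at 12 (46.2%, against 33.6%). Their median highest window was 0.74, against 0.77 over all genes. The highest was Gja1, the gap junction protein connexin 43, at 2.23 (probes 1.01 to 2.74), with both signals well above background at 1 of its 3 probes. Aard followed at 1.54, with 0 such probes. The lowest windows were those of Nr0b1, a nuclear receptor, at -1.92 and Cldn3, a claudin, at -1.90. Low highest windows are thus a description and did not extend to every Sertoli gene listed. The further Sertoli genes also had a lower share of CREM-side windows than the arrays, 2.50% of their windows against 5.99% of all windows.

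Among 20 measured genes of AMH, inhibin and activin signalling, 4 had a CREM-side window (20%, against 34.4% of all genes) and 13 an IgG-side window (65%, against 33.6%), with a median highest window of 0.62. Smad2 and Smad1, which carry the signal of these ligands to the nucleus, were highest at 1.64 and 1.33, but both signals were well above background at 0 and 1 of the 3 probes. Smad2, at -2.12, and the activin receptor gene Acvr2b, at -2.07, were lowest. Among 13 hedgehog signalling genes, 5 had a CREM-side window (38.5%) and 6 an IgG-side window (46.2%), with a median of 0.64. Sufu, an inhibitor of the pathway, was highest at 1.83, followed by Hhip, which binds the ligands, at 1.58, with both signals well above background at 1 and 2 of the 3 probes. The ligand gene Ihh and the coreceptor gene Gas1 were lowest at -1.90 and -1.89.

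Of 14 genes of Leydig cells, the steroid-producing neighbours of the tubules, 3 had a CREM-side window (21.4%, against 34.4% of all genes). An IgG-side window was present at 3 (21.4%, against 33.6%), and the median highest window was 0.58. Fdx1, an electron carrier of steroid synthesis, had both the highest at 2.05, with both signals well above background at 0 of its 3 probes, and the lowest at -2.13. Its reductase gene Fdxr followed on the CREM side at 1.43, with both signals well above background at 1 of 3 probes, and the hormone gene Insl3 on the IgG side at -1.86. Of 7 genes of spermatid nuclear proteins, made in the germ cells themselves, 4 had a CREM-side window (57.1%, against 34.4% of all genes). An IgG-side window was present at 1 (14.3%, against 33.6%), and the median highest window was 1.51. Hils1 and H1fnt, both linker histones of spermatids, were highest at 2.70 and 1.64, with both signals well above background at 1 and 3 of the 3 probes, and the protamine gene Prm1 was lowest at -2.64, followed by H1fnt at -0.47. Windows on the CREM side made up 5.99% of all windows and 0.837% of those at the 10 Sertoli genes. The shares were 2.50% at the further Sertoli genes, 1.84% at the AMH and activin genes and 4.82% at the hedgehog genes. At the Leydig genes the share was 3.01%, and at the spermatid genes 17.2%, the only list above all windows. Windows on the IgG side made up 4.56% of all windows and 5.86% of those at the 10 Sertoli genes. Their shares were 6.63% at the further Sertoli genes, 10.66% at the AMH and activin genes and 8.13% at the hedgehog genes. At the Leydig and spermatid genes the IgG-side shares were 2.34% and 4.04%, below that of all windows. Each list is a description without a test.

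Over both arrays the CREM channel was well above background at 96.3% and 95.5% of positioned probes and the IgG channel at 77.4% and 78.4%. No measured probe was spotted more than 1 time. Between spots of 21 control probes per array, the log2 ratio had a median SD of 0.14 on each array. Single control probes reached an SD of 0.49 on array 1 and 0.75 on array 2. The median IgG signals of the control probes were 1215 and 1488, so dim probes are not represented. The SD between spots covers neither the precipitation nor the labelling, and the number of arrays limits the precision of every value above.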

How the data were processed

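Agilent promoter arrays, 1 hybridisation each of 2 designs, compared CREM-precipitated DNA (Cy5) with IgG-precipitated DNA (Cy3). Per the file headers, the deposited scanner files come from Agilent Feature Extraction 10.7.1.1 with probe positions on mouse build mm9, and give intensity per channel, both raw and processed (background removed, dyes scaled), with flags for dim, saturated and outlying spots. Per the file headers, the deposited LogRatio is log10 of processed Cy5 over Cy3. Values deposited by the authors as a table are log2 ratios of unstated scale and direction, with medians of -0.00096 and -0.00103. Background subtraction and within-array loess returned them in scanner file order with r = 1. For this the submitters' processing notes list limma in R 2.10.1.

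The value used here was log2 of processed Cy5 over Cy3, centred on the array median (shifts of 0.02), in R 4.3.3, limma 3.58.1 and Python 3.11.15. Control spots, outlier spots (46 and 9), probes without a position (301 and 417) and probes dim in both channels (8573 and 10355) were dropped, and 228275 and 226404 probes remained. Median processed signals were 790.3 for CREM and 788.4 for IgG on array 1, and 780.9 and 778.5 on array 2. Windows and thresholds are as stated in the text. A ratio over a dim IgG signal was also given against the lowest IgG signal well above background on that array, which is not a strict bound. With 1 sample per array no test was possible, and lists are described by counts and medians beside all genes. The scripts were tested on simulated data. Distances to a start were counted in mm9 steps from a probe matched to a RefSeq promoter, which assumes no insertion between the builds. Without an mm9 annotation, exon and intron placement is not given.

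The members and lists were chosen with earlier results of these data known. All 10 genes are named, and of each other list the 2 highest and 2 lowest, with other genes named after their values were seen. Alternatives were background correction by normexp (offset 50), loess, the authors' values, no centring, subtraction of the GC trend (medians of 2% bins with 50 probes or more), filters on dim probes, windows of 5 probes, the mean, a gap of 1000 bp, a threshold of 1.5 and stricter naming of windows.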

Additional observations from a re-analysis of the deposited data

How the results depend on the processing

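Counts are of genes, windows and probes on the CREM side (1 or more) and the IgG side (-1 or less). With normexp background correction the 10 genes had 0 CREM-side and 0 IgG-side genes, 0 and 0 windows, and 2 and 3 probes, where 16.2% and 3.70% of all genes and 2.43% and 0.340% of all windows were counted. With the authors' values there were 0 CREM-side genes (17.3% of all genes), 0 and 9 windows (2.91% and 2.65% of all), and 2 and 16 probes. Without the GC trend there were 5 IgG-side windows (1.26% of all) and 17 IgG-side probes. With probes well above background in both channels there were 0 CREM-side genes (20.8% of all), 0 of 196 windows (4.57% of all) and 2 probes. With windows of 5 probes there were 0 CREM-side genes (19.8% of all) and 0 of 200 windows (4.78% of all). The median highest window was then 0.23, against 0.51 over all genes. At a threshold of 1.5 there were 0 CREM-side genes (14.1% of all), 0 and 3 windows (2.03% and 1.48%), and 4 and 9 probes. The cause was not tested, except that a higher threshold can only lower counts. With the other alternatives (loess, no centring, no filter, the mean, a gap of 1000 bp, stricter naming) these counts stayed within 1.5 times. Shares of all probes are not given for the alternatives. A change in a probe count here therefore cannot be set against the change over all probes.

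The highest window of Wt1 stayed at 1 or more under 7 of 11 alternatives (0.14 to 1.32), its lowest at -1 or less under 10 of 11 (-2.16 to -0.44), that of Inhbb under 10 (-1.61 to -0.58) and that of Amh under 8 (-1.33 to -0.23), and Gata4 reached -1.15 with the mean. Of 220 highest and lowest windows recomputed, 158 moved by less than the spread taken between replicate control spots, 62 moved more, and 219 kept their sign, the exception being the highest window of Inhbb, at -0.003 with windows of 5 probes. No paired analysis was possible because each array is a group of 1 sample and carries other loci. Both precipitations were measured 1 time, so no value separates antibody, dye and array. Dim IgG signals limit the ratios on the CREM side, at 7 of the 9 probes counted there.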
